A study of Ovis aries with 6 samples.

Results

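The 5 sheep genes SGCZ, CRISPLD1, SDC4, LTBP2 and KIAA1755 were followed across the nuclei of the rumen wall, 5 of the 26741 genes in the deposited matrices. They were selected on their measured levels in fibroblast-like nuclei, where they stood out between MGHS and MGNS animals in earlier results on these data and were set against other cells, so their levels there are a description and carry no test. Nuclei of rumen epithelium, taken from the ventral sac of 6 male lambs after slaughter, went into droplet libraries, with 1 library for each animal, in a series on grazing sheep and supplementary feeding. MGHS comprised 3 of these lambs and MGNS the other 3, drawn at random from each group. What the 2 names stand for is not given in the labels, nor are age, breed or feeding time.

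Fibroblasts make and anchor the connective tissue under the rumen epithelium. SGCZ encodes zeta-sarcoglycan, a transmembrane subunit of the sarcoglycan complex, which joins dystrophin and dystroglycan in linking the cytoskeleton to the matrix in muscle. SDC4 encodes syndecan-4, a cell-surface heparan sulfate proteoglycan that works with integrins in focal adhesions. LTBP2 encodes a latent TGF-beta binding protein of the fibrillin microfibrils, and CRISPLD1 a secreted protein of the CAP superfamily. KIAA1755 encodes a protein for which no role is given here. Their NCBI gene numbers in the matrices are 101122410 for SGCZ, 101109455 for CRISPLD1, 101108677 for SDC4, 101107605 for LTBP2 and 101123397 for KIAA1755.

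The matrices held 67553 barcodes and 268011559 unique molecular identifiers (UMIs), from 34418856 to 59997793 UMIs per animal. After filtering, 41822 nuclei were retained, 21984 from MGHS and 19838 from MGNS, with a median of 3123 to 4764.5 UMIs per nucleus in an animal. Among the retained nuclei, 196 barcode sequences occurred in more than 1 library. The fibroblast-like class held 3418 nuclei in clusters 0 and 1, and in both clusters 12 of 12 fibroblast markers were at least 2-fold above the other clusters. Fibroblast-like nuclei made up 8.94 ± 1.94% of retained nuclei in MGHS and 7.89 ± 3.38% in MGNS (SD, n = 3 each). That difference lay within the spread between animals (two-sided exact permutation p = 0.8, where 0.1 is the smallest possible).

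SGCZ, the sarcoglycan gene, was far higher in MGHS fibroblast-like nuclei. UMIs were summed over the fibroblast-like nuclei of each animal and are given as CPM, a gene's UMIs scaled to the total UMIs of that sum. SGCZ stood at 260.1, 107.5 and 213.9 CPM in MGHS 1, 2 and 3, against 6.40, 3.84 and 13.4 CPM in MGNS 1, 2 and 3. The lowest MGHS animal lay well above the highest MGNS animal. The means were 193.8 ± 78.3 CPM in MGHS and 7.87 ± 4.94 CPM in MGNS (SD, n = 3 each), and the fitted log2 fold change, MGHS over MGNS, was 4.59 (SE 0.48). In such sums, fewer nuclei with a transcript and less of it per nucleus cannot be told apart.

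CRISPLD1, the CAP superfamily gene, was the second of the genes that were higher in MGHS. It stood at 60.2, 55.5 and 74.5 CPM in MGHS fibroblast-like nuclei, against 10.0, 6.72 and 7.27 CPM in MGNS ones. The groups did not overlap, and the spread within each was small beside the gap. The means were 63.4 ± 9.91 and 8.01 ± 1.79 CPM (SD, n = 3 each), a log2 fold change of 2.99 (SE 0.24).

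SDC4, the syndecan, was lower in MGHS. Its level in fibroblast-like nuclei was 44.6, 49.3 and 67.1 CPM in MGHS 1, 2 and 3, against 167.6, 240.8 and 181.3 CPM in MGNS 1, 2 and 3. MGNS 2 was the highest animal, and every MGHS animal lay below every MGNS animal. The means were 53.6 ± 11.9 and 196.6 ± 38.9 CPM (SD, n = 3 each), with a log2 fold change of -1.87 (SE 0.22).

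LTBP2, the microfibril-associated gene, followed the same order. It stood at 18.6, 12.1 and 16.8 CPM in MGHS fibroblast-like nuclei, against 56.6, 52.3 and 49.4 CPM in MGNS ones, without overlap. The means were 15.8 ± 3.36 and 52.8 ± 3.67 CPM (SD, n = 3 each), with a log2 fold change of -1.72 (SE 0.22). When doublets were kept and the nuclei clustered again, the LTBP2 value was -1.08. KIAA1755 stood at 17.5, 14.3 and 14.9 CPM in MGHS, against 48.9, 59.0 and 63.5 CPM in MGNS, with a log2 fold change of -1.86 (SE 0.21). All 5 genes thus separated the 2 groups of 3 animals in these nuclei, 2 upwards and 3 downwards, which is what they were picked for.

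**Figure D1:**
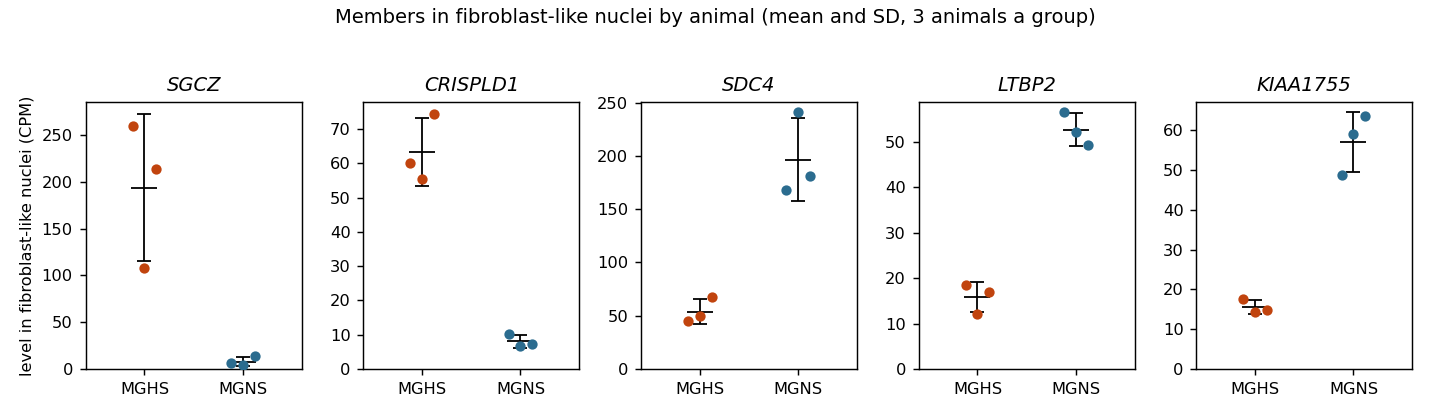
Level in fibroblast-like nuclei (CPM of summed UMIs, linear axis from 0) of each of the 5 genes; each point is 1 animal, with MGHS left of MGNS, and lines give the mean and SD over 3 animals. SGCZ and CRISPLD1 lie higher in all 3 MGHS animals, and SDC4, LTBP2 and KIAA1755 lie lower.

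With edgeR's quasi-likelihood test, 10 of 12344 genes passed an adjusted p of 0.05 in fibroblast-like nuclei, 0.081% of those tested, 2 of them higher in MGHS (0.0162%) and 8 lower (0.0648%). All 5 genes were tested, and all 5 lie among those 10 because the choice was made on this contrast. The other called genes were SLC39A14, a zinc and iron transporter, RELB, an NF-kB subunit, C3, the central complement protein, and the unnamed LOC105604171 and LOC101119706, all lower in MGHS. Non-overlapping groups were common, at 19.4% of tested genes, 9.03% higher and 10.3% lower in MGHS, so separation of the animals alone sets no gene apart here.

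The last gene inside the limit was C3, at 190.9 ± 33.5 CPM in MGHS and 524.6 ± 47.0 CPM in MGNS. The first genes outside it were LOC101121216, CDKL1, a kinase gene, and CD44, the hyaluronan receptor. CD44 averaged 399.3 ± 22.5 CPM in MGHS and 1050 ± 178.6 CPM in MGNS, a log2 fold change of -1.38 (SE 0.19). CDKL1 ran the other way, at 28.5 ± 0.894 CPM in MGHS and 7.90 ± 1.86 CPM in MGNS. The genes next in order were LOC101104114 and NCAM1, a neural cell adhesion molecule, with log2 fold changes of 1.74 (SE 0.25) and 1.65 (SE 0.24).

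The sets of called genes depended on each animal. Without MGHS 1, none of the 5 genes was called and 0 genes were called in all by edgeR, with 1466 genes at an unadjusted p under 0.05 in that fit. Without any other single animal 1 or 2 of the 5 were called, of 1 to 4 genes. DESeq2 called 272 genes and limma voom 23 over the 6 animals, the 5 among them each time. The log2 fold changes themselves moved little when an animal was left out, over 4.28 to 5.22 for SGCZ, 2.88 to 3.17 for CRISPLD1, -2.04 to -1.69 for SDC4, -1.86 to -1.58 for LTBP2 and -1.97 to -1.79 for KIAA1755.

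Fibroblast-like nuclei fell into 2 clusters, and SGCZ and CRISPLD1 lay in different ones. Cluster 0 (2115 nuclei) was led by CADM2, TRPA1, LAMA2, PDGFRA and TWIST2, and cluster 1 (1303 nuclei) by ADAMTSL1, GPC6, SCARA5, PCOLCE2, C7, COL14A1 and CXCL12. The 5 genes were kept out of the genes used to cluster, so they did not set these borders. In cluster 1, SGCZ stood at 882.1, 325.2 and 923.4 CPM in MGHS, against 20.8, 12.4 and 24.3 CPM in MGNS, a log2 fold change of 5.19 (SE 0.47). In cluster 0 it stood at only 7.83, 2.65 and 1.26 CPM in MGHS and 1.24, 0.658 and 1.59 CPM in MGNS, where the groups overlapped. SGCZ was thus higher in cluster 1 than in cluster 0 in every animal. In MGNS, however, its cluster 1 mean of 19.15 ± 6.12 CPM was not above that of barcodes with under 300 genes (23.8 ± 13.6 CPM), which were not retained. A single nucleus held 11 of the 12 SGCZ UMIs in cluster 1 of MGNS 1 and all 7 in MGNS 2.

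CRISPLD1 had the opposite place. In cluster 0 it stood at 84.6, 82.2 and 96.0 CPM in MGHS, against 13.7, 9.21 and 15.1 CPM in MGNS, a log2 fold change of 2.80 (SE 0.24). In cluster 1 it had 0, 0 and 2 UMIs in MGHS 1, 2 and 3, and 0 in every MGNS animal. At 3 counts per library as the floor, 0 UMIs in cluster 1 of MGNS 1, 2 and 3 allows up to 5.19, 5.31 and 2.21 CPM, for counting error only, and the MGHS levels lie under such a floor too. No fold is therefore given for cluster 1. SGCZ and CRISPLD1 were seen in the same nucleus in 3 of 1873 MGHS fibroblast-like nuclei, where 115 held SGCZ and 229 held CRISPLD1, and in 0 of 1545 MGNS ones, where 23 and 36 did.

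SDC4, LTBP2 and KIAA1755 lay in both clusters and were lower in MGHS in both. SDC4 averaged 62.8 ± 14 CPM in MGHS and 229.0 ± 61.3 CPM in MGNS in cluster 0, and 29.8 ± 6.68 and 122.6 ± 37.5 CPM in cluster 1. LTBP2 averaged 17.0 ± 4.41 and 59.0 ± 3.24 CPM in cluster 0, and 12.1 ± 4.87 and 39.9 ± 2.78 CPM in cluster 1. KIAA1755 averaged 16.9 ± 2.36 and 68.7 ± 15.4 CPM in cluster 0, and 11.7 ± 2.86 and 38.4 ± 5.31 CPM in cluster 1. None of these 6 comparisons had overlapping groups, beside 9.7% of all tested genes that were lower in MGHS without overlap in cluster 0 and 10.6% in cluster 1. The log2 fold changes in clusters 0 and 1 were -1.86 (SE 0.25) and -2.01 (SE 0.30) for SDC4, -1.78 (SE 0.24) and -1.67 (SE 0.37) for LTBP2, and -2.004 (SE 0.25) and -1.67 (SE 0.35) for KIAA1755. Cluster 1 held 32.5%, 38.0% and 28.0% of the fibroblast-like nuclei in MGHS 1, 2 and 3, against 32.5%, 31.8% and 57.0% in MGNS 1, 2 and 3. MGNS 3 stood apart in that share.

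**Figure D2:**
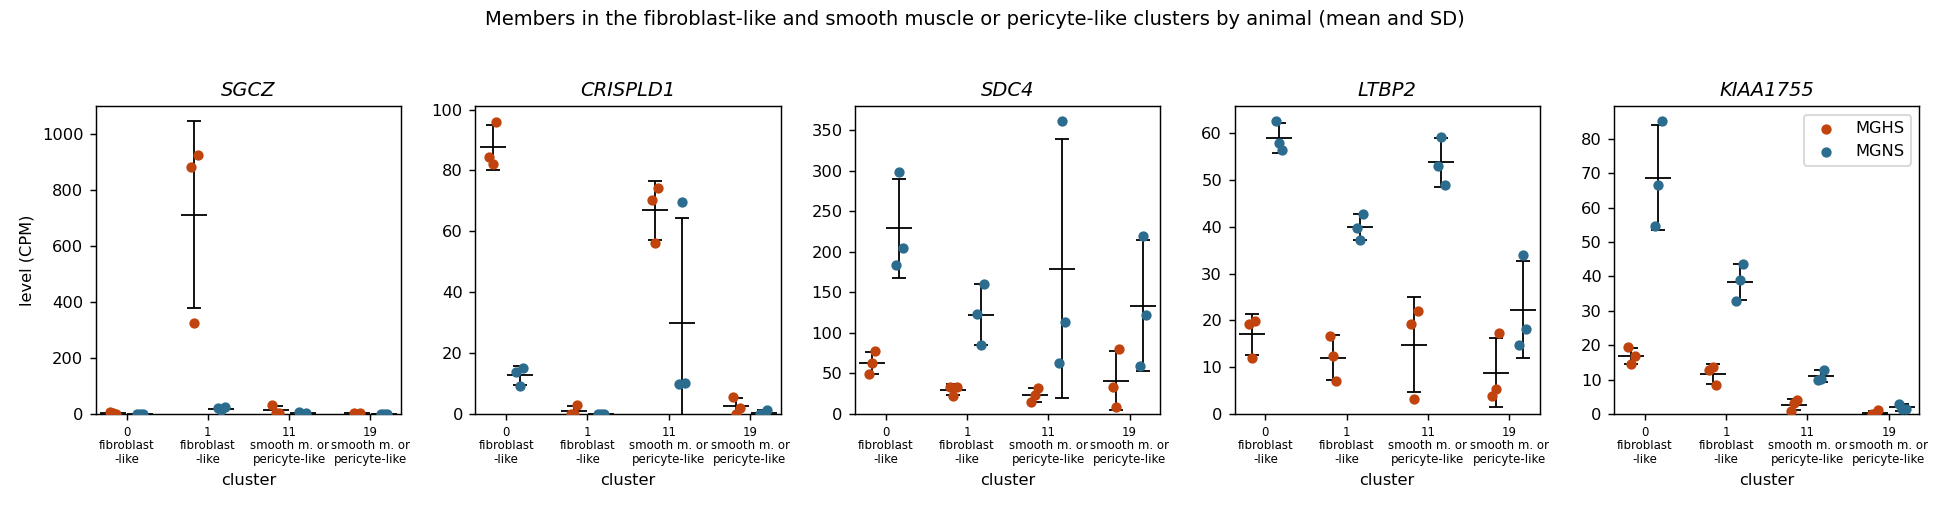
Level (CPM of summed UMIs, linear axis from 0) of the 5 genes in the fibroblast-like clusters 0 and 1 and the smooth muscle or pericyte-like clusters 11 and 19; each point is 1 animal, MGHS left of MGNS, with mean and SD over 3 animals, and bars that reach below 0 are not drawn past it. SGCZ is high in cluster 1 of MGHS (325.2 to 923.4 CPM) and CRISPLD1 in clusters 0 and 11.

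The SGCZ signal came from few nuclei that each held many SGCZ UMIs. In cluster 1, nuclei with at least 3 SGCZ UMIs numbered 37 of 192, 16 of 215 and 33 of 201 in MGHS 1, 2 and 3, against 1 of 112, 1 of 127 and 5 of 456 in MGNS 1, 2 and 3. Over the animals this was 14.1% of MGHS and 1.01% of MGNS cluster 1 nuclei. Those MGHS nuclei carried 98.5% of the cluster's SGCZ UMIs, with a median of 11 and up to 150 UMIs in a nucleus. The corresponding MGNS nuclei carried 71.2% of the cluster's SGCZ UMIs, with a median of 4 and a highest count of 11.

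The SGCZ-rich nuclei of MGHS differed from the SGCZ-free nuclei of the same cluster and animal in a few other genes, given as a description because the split was chosen after the values were seen. A gene was kept where the log2 ratio, with 10 CPM added, was at least 1 in the same direction in all 3 animals, and where each animal had at least 10 UMIs in SGCZ-rich nuclei (for higher genes) or 40 in SGCZ-free nuclei (for lower genes). Beside SGCZ itself, EBF2, a transcription factor, was higher in SGCZ-rich nuclei, at 318.7, 603.0 and 198.4 CPM, against 55.9, 167.4 and 64.2 CPM in SGCZ-free nuclei. LOC132657297 was the only other gene in that direction within these limits. In the other direction there were 14 genes, among them GPC3, a glypican, ROBO2, a Slit receptor, and TENM4, a teneurin. The UMI limits differ by direction, and each gene passes by the nuclei in which it is higher. The numbers of genes in each direction therefore cannot be compared. ROBO2 stood at 68.7, 15.9 and 47.6 CPM in SGCZ-rich nuclei of MGHS 1, 2 and 3, against 447.6, 430.0 and 813.3 CPM in SGCZ-free ones. The glia list had 0, 0 and 1 UMIs in the 37, 16 and 33 SGCZ-rich nuclei of MGHS 1, 2 and 3. It had 1, 3 and 5 UMIs in the more numerous SGCZ-free nuclei, so glial markers were at or near 0 in both. The T or NK list was higher in SGCZ-rich nuclei of MGHS 1 and 3, at 493.7 and 563.5 CPM, against 337.4 and 176.6 CPM. In MGHS 2 it was lower, at 63.5 CPM, against 141.3 CPM. The summed fibroblast list was higher in SGCZ-rich nuclei in all 3 animals. The smooth muscle or pericyte list, which includes EBF2, summed to 481.2, 698.2 and 293.6 CPM, against 203.5, 327.1 and 242.6 CPM. EBF2 alone gave 318.7, 603.0 and 198.4 CPM of the former and 55.9, 167.4 and 64.2 CPM of the latter. The higher sum of this list is therefore no sign apart from EBF2. The part of these lists in the result was not tested.

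Shares of nuclei with a UMI were compared at equal depth, since the median fibroblast-like nucleus held 3516 to 4070 UMIs in MGHS animals and 2896 to 5702 in MGNS animals. Each nucleus was thinned to 1000 UMIs, which left out 92 MGHS and 69 MGNS nuclei. SGCZ was then seen in 4.81 ± 2.33% of MGHS and 0.738 ± 0.417% of MGNS fibroblast-like nuclei (6.12 ± 1.95% and 1.26 ± 0.817% without thinning). CRISPLD1 was seen in 4.83 ± 0.345% of MGHS and 0.451 ± 0.129% of MGNS nuclei (12.2 ± 0.892% and 2.66 ± 1.03% without thinning). At 2000 UMIs the CRISPLD1 shares were 8.86 ± 0.121% in MGHS and 1.89 ± 0.146% in MGNS.

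The 3 genes with lower levels in MGHS were also seen in fewer MGHS nuclei. SDC4 was detected in 3.88 ± 0.553% of MGHS and 14.3 ± 3.30% of MGNS thinned nuclei (13.8 ± 2.104% and 37.8 ± 8.01% without thinning). LTBP2 was detected in 1.65 ± 0.468% of MGHS and 3.87 ± 0.703% of MGNS thinned nuclei, and 5.27 ± 1.67% and 12.6 ± 3.06% without thinning. KIAA1755 was detected in 1.25 ± 0.597% of MGHS and 5.20 ± 0.944% of MGNS thinned nuclei, and 4.89 ± 0.773% and 17.0 ± 3.07% without thinning. T or NK-like nuclei, with medians of 2373 to 2604.5 UMIs in MGHS and 2059 to 3515 in MGNS, gave 1 measure of the level that free RNA could leave. Their thinned means were 0.432% and 0.222% for SGCZ, 0.0658% and 0% for CRISPLD1, 1.07% and 1.47% for SDC4, 0.496% and 0.448% for LTBP2 and 0.0351% and 0% for KIAA1755, in MGHS and MGNS. Every fibroblast-like mean lay above its T or NK-like counterpart. The barcodes with under 300 genes, which hold RNA of all cell types, gave a second measure. There LTBP2 averaged 26.1 ± 3.496 CPM in MGHS and 48.2 ± 10.7 CPM in MGNS, and SGCZ averaged 25.0 ± 7.85 CPM in MGHS and 23.8 ± 13.6 CPM in MGNS. The fibroblast-like LTBP2 level in MGHS and the SGCZ level in MGNS were thus below those of such barcodes, and the LTBP2 level in MGNS was close to them. KIAA1755 averaged 0.442 ± 0.765 CPM in MGHS and 4.81 ± 2.42 CPM in MGNS in these barcodes, below its fibroblast-like levels.

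Across the rumen wall, the 5 genes were not all fibroblast genes. KIAA1755 came nearest to it, since fibroblast-like nuclei held 82.2% of its UMIs in MGHS and 85.2% in MGNS. Its level over the 6 animals was 36.4 ± 23.3 CPM (SD) in fibroblast-like nuclei, ahead of 8.67 ± 17.4 CPM in glia-like and 4.61 ± 3.13 CPM in smooth muscle or pericyte-like nuclei, and under 1 CPM in all other classes. The glia-like value rests on 19 to 106 nuclei per animal, and all 3 MGHS animals were at 0 there.

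CRISPLD1 was shared by 2 stromal classes. In the smooth muscle or pericyte-like class it lay almost only in cluster 11, whose markers are partly those of fibroblasts. It averaged 66.9 ± 9.545 CPM in MGHS and 29.8 ± 34.4 CPM in MGNS in cluster 11. In cluster 19 it averaged 2.55 ± 2.84 CPM in MGHS and 0.431 ± 0.747 CPM in MGNS. In MGHS it averaged 63.4 ± 9.91 CPM in fibroblast-like and 45.9 ± 6.16 CPM in smooth muscle or pericyte-like nuclei, where the animals' values did not overlap between the classes. In MGNS it averaged 8.01 ± 1.79 CPM in fibroblast-like and 17.2 ± 18.5 CPM in smooth muscle or pericyte-like nuclei, within the spread. Glia-like nuclei followed at 6.71 ± 10.6 CPM over the 6 animals, and no keratinocyte-like class averaged 1 CPM. Fibroblast-like nuclei held 57.6% of its UMIs in MGHS and 35.5% in MGNS.

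SGCZ was high in glia-like nuclei of MGNS, while its MGHS values there rest on few UMIs. Glia-like nuclei held 75.3, 409.8 and 73.8 CPM in MGHS, against 151.9, 195.8 and 137.9 CPM in MGNS, and the groups overlapped. These come from 2, 13 and 3 UMIs in 19, 35 and 21 nuclei of MGHS 1, 2 and 3. In MGNS 1, 2 and 3 they come from 7, 17 and 16 UMIs in 34, 93 and 106 nuclei. MGHS 1 lay under its floor of 3 UMIs (113 CPM), and MGHS 3 lay on its own (73.8 CPM). In MGHS the glia-like mean of 186.3 ± 193.6 CPM and the fibroblast-like mean of 193.8 ± 78.3 CPM lay within the spread. In MGNS the glia-like mean of 161.9 ± 30.2 CPM lay far above the fibroblast-like mean of 7.87 ± 4.94 CPM. All other classes averaged under 6 CPM over the 6 animals. Fibroblast-like nuclei held 82.2% of all SGCZ UMIs in MGHS and 21.5% in MGNS. No test was run in glia-like nuclei because 1 animal had under 20 of them.

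SDC4 was a gene of many cell types. In MGHS it averaged 53.6 ± 11.9 CPM in fibroblast-like, 47.1 ± 9.36 CPM in granular-like, 61.5 ± 3.61 CPM in spinous-like and 29.5 ± 16.9 CPM in smooth muscle or pericyte-like nuclei. In MGNS the same classes averaged 196.6 ± 38.9, 192.7 ± 80.3, 172.8 ± 43.1 and 158.9 ± 123.8 CPM. Fibroblast-like, granular-like and spinous-like nuclei overlapped within each group. Its lowest level over the 6 animals was 10.4 ± 5.10 CPM in blood endothelial-like nuclei. Fibroblast-like nuclei held only 9.78% of its UMIs in MGHS and 13.3% in MGNS.

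LTBP2 was mainly a keratinocyte gene here. Basal-like keratinocytes, the lowest layer of the epithelium, held 135.2, 121.1 and 109.3 CPM in MGHS, against 169.8, 160.5 and 151.4 CPM in MGNS. Over the 6 animals the order ran from basal-like (141.2 ± 23.5 CPM) and cycling keratinocyte-like nuclei (106.2 ± 24.2 CPM) through lymphatic endothelial-like (52.7 ± 27.1 CPM), neutrophil-like (50.5 ± 28.4 CPM), spinous-like (38.2 ± 12.6 CPM) and glia-like nuclei (37.1 ± 29.4 CPM) to fibroblast-like nuclei (34.3 ± 20.5 CPM), where the SDs of neighbours after the cycling class overlapped. These SDs hold the difference between the groups too, and in MGHS alone spinous-like nuclei (41.6 ± 4.97 CPM) lay above fibroblast-like nuclei (15.8 ± 3.36 CPM) beyond the spread. Fibroblast-like nuclei held 2.70% of its UMIs in MGHS and 5.96% in MGNS. The name fibroblast gene therefore does not describe LTBP2 in this tissue.

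**Figure D3:**
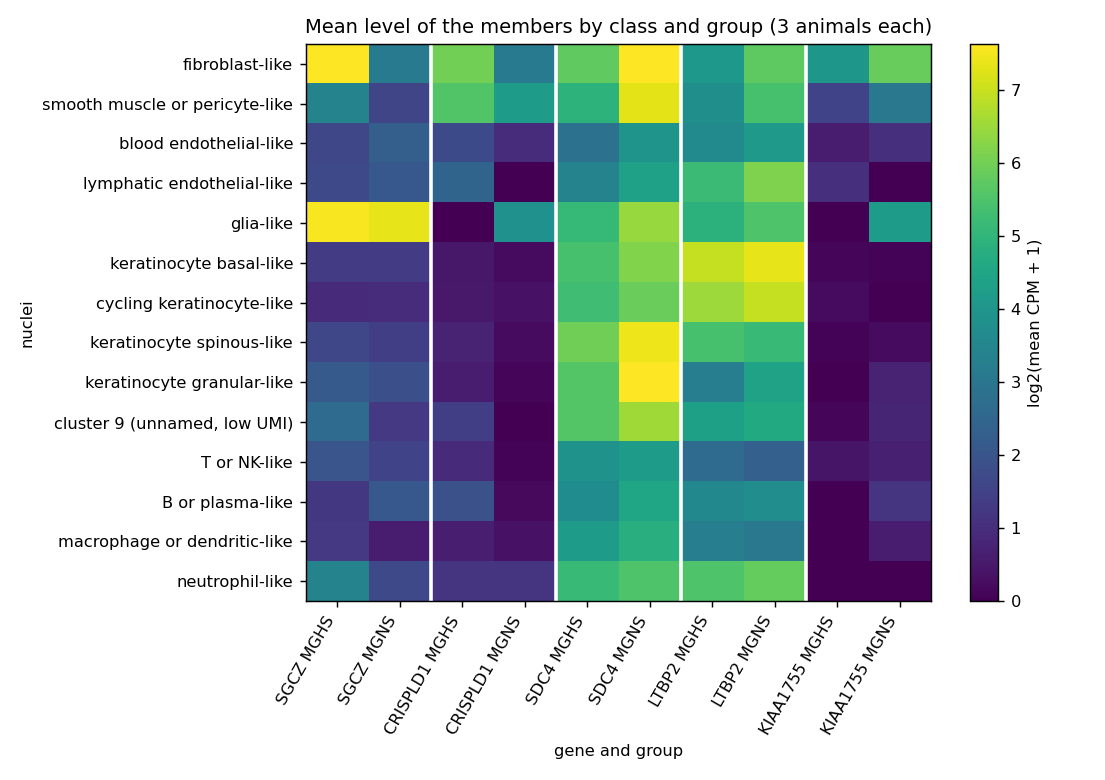
Mean level of each gene by class of nuclei (log2 of mean CPM + 1, colour scale from 0), with MGHS left of MGNS for each gene and 3 animals a group. KIAA1755 and CRISPLD1 are highest in the stromal classes, SGCZ in glia-like and MGHS fibroblast-like nuclei, LTBP2 in basal-like keratinocytes, and SDC4 spans fibroblast-like, smooth muscle and keratinocyte-like classes.

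Outside fibroblast-like nuclei, 23 pairs of gene and named class had enough counts to test, in the same animals. The rule that named the genes also speaks of other stromal and epithelial cells, so the tests in those classes are not free of the choice and are given as values that support nothing further. None passed edgeR's adjusted p of 0.05, 9 had an unadjusted p under 0.05, DESeq2 called 4 and limma voom called 0. In the smooth muscle or pericyte-like class 0 of 11804 genes were called (0%), in granular-like 0 of 11279 (0%) and in spinous-like 0 of 12294 (0%). DESeq2 called 194, 326 and 240 genes in these 3 classes and limma voom 0, 24 and 0, while 1405, 1547 and 1407 had an unadjusted p under 0.05. Basal-like nuclei had 1 called gene of 14109 (0.00709%), T or NK-like nuclei 1 of 12100 (0.00826%) and cycling keratinocyte-like nuclei 6 of 10332 (0.0581%). In these 3 classes, in that order, 2254, 985 and 1459 genes had an unadjusted p under 0.05. DESeq2 called 425, 139 and 207 genes there, and limma voom 27, 2 and 6. The other 5 named classes had 0 called genes by edgeR and 257 to 945 at an unadjusted p under 0.05, while DESeq2 called 1 to 74 genes in each and limma voom 0.

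SDC4 had a negative log2 fold change in all 9 other named classes in which it was tested. The sizes ran from -2.38 (SE 0.63) in smooth muscle or pericyte-like, -1.78 (SE 0.36) in granular-like and -1.43 (SE 0.24) in spinous-like nuclei to -0.37 (SE 0.27) in T or NK-like and -0.32 (SE 0.67) in B or plasma-like nuclei. The adjusted p was 0.247, 0.145 and 0.183 in the first 3 of these (edgeR), so none passed, although DESeq2 called all 3. Without MGNS 2 the value in smooth muscle or pericyte-like nuclei was -1.56 (edgeR adjusted p = 0.495). In granular-like nuclei SDC4 stood at 42.4, 40.9 and 57.8 CPM in MGHS, against 233.6, 100.3 and 244.4 CPM in MGNS. In spinous-like nuclei it stood at 57.4, 63.8 and 63.4 CPM in MGHS, against 162.9, 135.5 and 219.9 CPM in MGNS. The groups did not overlap in either class, beside 12.3% and 11.6% of all tested genes that were lower in MGHS without overlap. Spinous-like and granular-like are the middle and upper layers of the epithelium.

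SDC4 in the other classes differed less. Blood endothelial-like nuclei had 6.25 ± 2.37 CPM in MGHS and 14.6 ± 2.74 CPM in MGNS, with a log2 value of -1.19 (SE 0.42, edgeR adjusted p = 0.4001). Basal-like nuclei had 41.4 ± 4.62 and 71.6 ± 21.9 CPM, with -0.65 (SE 0.22, edgeR adjusted p = 0.235). In blood endothelial-like, basal-like and cycling keratinocyte-like nuclei the groups did not overlap, beside 7.06%, 17.7% and 15.7% of tested genes lower in that way, and neither did they in the smooth muscle or pericyte-like class, beside 11.5%. They overlapped in the 3 immune classes that were tested, T or NK-like, macrophage or dendritic-like and B or plasma-like. The sign in B or plasma-like nuclei turned to 0.30 without MGHS 1, where that class holds 23 to 433 nuclei per animal. SDC4 was also lower in barcodes with under 300 genes, which were not retained, at 26.5, 31.7 and 41.5 CPM in MGHS, against 81.3, 58.4 and 108.9 CPM in MGNS, and the part of such free or degraded RNA in the class levels was not tested.

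**Figure D4:**
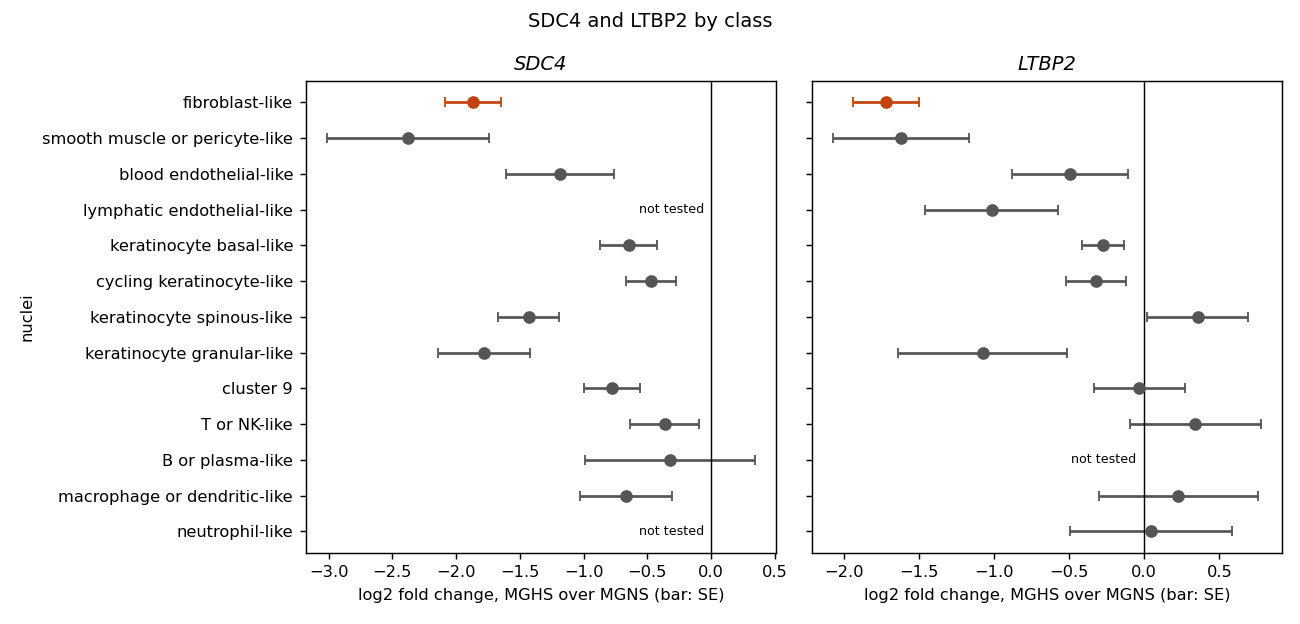
Log2 fold change, MGHS over MGNS, of SDC4 (left) and LTBP2 (right) in each class of nuclei, with the standard error as the bar; fibroblast-like nuclei are in orange and carry no test. All SDC4 points lie below 0, and those of LTBP2 lie on both sides.

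LTBP2 did not show this across classes. Its log2 fold change was -1.62 (SE 0.45, edgeR adjusted p = 0.238) in smooth muscle or pericyte-like nuclei, where the levels were 14.5, 3.84 and 20.3 CPM in MGHS, against 40.8, 48.0 and 36.1 CPM in MGNS, and DESeq2 called it. In lymphatic endothelial-like nuclei it was -1.01 (SE 0.44, edgeR adjusted p = 0.541) with overlapping groups. In basal-like nuclei, where LTBP2 was highest, it was -0.27 (SE 0.14, edgeR adjusted p = 0.374), although the groups did not overlap, as for 17.7% of all genes tested there in that direction. Of its 10 other tested classes, 6 had a negative and 4 a positive value, the highest being 0.36 (SE 0.34) in spinous-like nuclei. Whether the change in fibroblast-like nuclei differs from that in keratinocytes was not tested, since the first was used in the choice.

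The smooth muscle or pericyte-like class showed the same directions as fibroblast-like nuclei for the 4 genes that could be tested there. Its cluster 11 (1661 nuclei, led by RSPO3, HHIP, MYH11 and ACTG2) had 7 of 12 smooth muscle or pericyte markers and 10 of 12 fibroblast markers at least 2-fold up, so its markers are partly those of fibroblasts. Cluster 19 (971 nuclei, led by RGS5 and ABCC9) had 10 and 3 of them. CRISPLD1 in this class stood at 50.3, 38.9 and 48.6 CPM in MGHS, against 6.64, 38.5 and 6.46 CPM in MGNS. MGNS 2 lay just below the lowest MGHS animal and far above the other MGNS animals. The log2 fold change was 1.43 (SE 0.62, edgeR adjusted p = 0.429), and it was 2.84 (edgeR adjusted p = 0.0844) without MGNS 2. KIAA1755 was at 0.579, 2.19 and 2.90 CPM in MGHS, against 7.58, 6.32 and 8.08 CPM in MGNS, with -1.80 (SE 0.52, edgeR adjusted p = 0.248). SGCZ was too low to be tested, with 22.6 CPM in MGHS 1 and at most 4.71 CPM in any other animal.

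In cluster 11 alone, MGNS 2 stood apart from the other MGNS animals for both SDC4 and CRISPLD1. SDC4 was at 14.2, 23.7 and 31.5 CPM in MGHS, against 62.9, 361.5 and 113.5 CPM in MGNS, a log2 difference of -2.90 (SE 0.67, edgeR adjusted p = 0.200), and -1.91 without MGNS 2. CRISPLD1 was at 70.3, 56.1 and 74.2 CPM in MGHS, against 9.78, 69.6 and 10.2 CPM in MGNS, a log2 difference of 1.19 (SE 0.68, edgeR adjusted p = 0.563). Without MGNS 2 the CRISPLD1 value was 2.75 (edgeR adjusted p = 0.111). The T or NK marker list in cluster 11 ran from 85.3 to 224.2 CPM in MGHS and from 377.4 to 716.9 CPM in MGNS, and its part in these values was not tested.

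The relatives of the 5 genes were then compared in fibroblast-like nuclei. Of the sarcoglycans, SGCE averaged 112.5 ± 5.91 CPM in MGHS and 75.5 ± 3.23 CPM in MGNS, a log2 difference of 0.58 (SE 0.15, edgeR adjusted p = 0.199). SGCD was at 0.40 (SE 0.20) and SGCB at 0.27 (SE 0.23), while SGCA was too low to be tested. None of SGCE, SGCD and SGCB passed the test. LTBP1, another latent TGF-beta binding protein, averaged 428.8 ± 98.7 CPM in MGHS and 759.2 ± 52.9 CPM in MGNS, with -0.81 (SE 0.22, edgeR adjusted p = 0.207). LTBP1 was lower in MGHS in cluster 0, at -1.14 (SE 0.23), and overlapped between the groups in cluster 1, at 0.25 (SE 0.33), with neither past the test. LTBP3 and LTBP4 stood at 0.16 (SE 0.19) and 0.20 (SE 0.29).

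The other syndecans did not show the SDC4 pattern at this depth. SDC2 averaged 467.3 ± 31.7 CPM in MGHS and 426.2 ± 100.5 CPM in MGNS, a log2 fold change of 0.14 (SE 0.21), and SDC1 was at 0.27 (SE 0.48), both with overlapping groups. SDC3 was too low to be tested. CRISPLD2, the paralogue of CRISPLD1, was at -0.58 (SE 0.22, edgeR adjusted p = 0.334), with overlapping groups. PI15, another CAP gene and the neighbour of CRISPLD1 in the sheep annotation, averaged 87.0 ± 18.99 CPM in MGHS and 44.3 ± 17.7 CPM in MGNS, with 0.98 (SE 0.31, edgeR adjusted p = 0.268). In cluster 1 PI15 rose, at 314.2, 245.3 and 217.9 CPM in MGHS, against 102.1, 81.4 and 109 CPM in MGNS (log2 1.44, SE 0.22, edgeR adjusted p = 0.0324), where 30 of 8394 genes were called (0.357%). The values of the alternatives for PI15 are not reported here. The other tested neighbours were TUSC3 beside SGCZ at 0.61 (SE 0.24), SYS1 beside SDC4 at 0.19 (SE 0.23), and ISCA2 and AREL1 beside LTBP2 at 0.29 (SE 0.41) and -0.16 (SE 0.21), none past the test. LOC101122163 overlaps SGCZ in that annotation and averaged 0.365 ± 0.332 CPM in MGHS and 0 in MGNS.

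In 11 gene lists around the 5 genes, 203 other genes were tested in fibroblast-like nuclei, and 1 fell and 0 rose by edgeR, beside 8 that fell and 2 that rose among all 12344 genes (0.081%). The median log2 fold change of all 12344 tested genes was 0.02. The gene that fell was RELB, at 22.3, 16.6 and 20.7 CPM in MGHS, against 63.9, 58.5 and 62.7 CPM in MGNS, a log2 difference of -1.62 (SE 0.19, edgeR adjusted p = 0.0334). Its call was lost with the replicate number as a block and in each fit that left out 1 animal. DESeq2 called 28 of the list genes, of 272 genes in all, and limma voom 5 of 23.

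RELB belongs to the NF-kB and cytokine response list, whose 19 tested genes all had a negative log2 fold change with a median of -0.95, beside 5912 of all 12344 genes below 0, and 12 of the 19 were lower in MGHS without overlap, beside 10.3% of all tested genes. NFKB1, another subunit, stood at -1.18 (SE 0.19, edgeR adjusted p = 0.0708), SOD2, the mitochondrial superoxide dismutase, -2.20 (SE 0.39, edgeR adjusted p = 0.0880), and REL -0.99 (SE 0.23, edgeR adjusted p = 0.157). In the immediate early list, 0 of 13 were called, and ATF3 stood at -2.51 (SE 0.48, edgeR adjusted p = 0.1004), with JUN at 0.94 (SE 0.27) and KLF6 at 0.56 (SE 0.17).

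In the sarcoglycan and dystrophin list 0 of 17 were called, and 14 of 17 had a positive log2 fold change with a median of 0.24, beside 6432 of all 12344 genes above 0. DTNA, dystrobrevin alpha, stood at 0.80 (SE 0.16, edgeR adjusted p = 0.102), and CAV1, the caveolin of membrane pits, at 1.52 (SE 0.31, edgeR adjusted p = 0.116). In the list of syndecans, glypicans and heparan sulfate genes 0 of 27 were called, with a median of 0.13. GPC3 stood at 1.15 (SE 0.17, edgeR adjusted p = 0.0653), and HPSE2, a paralogue of the heparanase gene, at 1.49 (SE 0.32, edgeR adjusted p = 0.133). SULF1, an extracellular sulfatase, stood at -0.84 (SE 0.22, edgeR adjusted p = 0.199), and GPC6 at -0.60 (SE 0.25). In the focal adhesion list 0 of 22 were called, and 15 of 22 were above 0 with a median of 0.10. TLN1, talin, had the smallest p there, at 0.50 (SE 0.17), followed by FERMT2, ZYX and ITGA11 at 0.47, -0.52 and 0.39.

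The latent TGF-beta and microfibril list had 0 of 35 called and a median of 0.09. LOX, the collagen cross-linking enzyme, stood at 1.09 (SE 0.19, edgeR adjusted p = 0.0792), TGFB3 at 1.91 (SE 0.40, edgeR adjusted p = 0.118), FBN2 at 1.34 (SE 0.31, edgeR adjusted p = 0.153) and EFEMP1 at -0.86 (SE 0.19, edgeR adjusted p = 0.143). Among the TGF-beta responsive genes 0 of 21 were called, with a median of -0.0038. CCN1 stood at 1.48 (SE 0.25, edgeR adjusted p = 0.0777), ACTA2 at 1.501 (SE 0.31, edgeR adjusted p = 0.116), TAGLN at 1.29 (SE 0.27, edgeR adjusted p = 0.125), and TGIF1 at -1.39 (SE 0.27, edgeR adjusted p = 0.103).

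Among the collagens 0 of 16 were called, and 15 of 16 had a positive log2 fold change with a median of 0.30, beside 6432 of all 12344 genes. Of the 16, 5 were higher in MGHS without overlap, beside 9.03% of all tested genes. COL5A1 stood at 0.95 (SE 0.17, edgeR adjusted p = 0.0777), COL3A1 at 1.09 (SE 0.24), COL1A2 at 1.12 (SE 0.27) and COL27A1 at 0.69 (SE 0.20). In the list of signals from subepithelial fibroblasts 0 of 22 were called, with a median of 0.15. BMP5 stood at 1.42 (SE 0.28, edgeR adjusted p = 0.103), FGF10 at 1.33 (SE 0.30), RSPO3 at 1.05 (SE 0.28), and SFRP1, a Wnt inhibitor, at -1.52 (SE 0.30, edgeR adjusted p = 0.114). In the CAP list 0 of 6 were called, with a median of 0.23, where CRISP3 and GLIPR1 stood at 0.95 (SE 0.51) and 0.21 (SE 0.33). In the universal and adventitial fibroblast list 0 of 12 were called, with a median of 0.20 and values of 0.84 (SE 0.29) for OGN, 0.52 (SE 0.25) for COL15A1, 0.71 (SE 0.36) for CLEC3B and -0.38 (SE 0.24) for ABCA10.

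**Figure D5:**
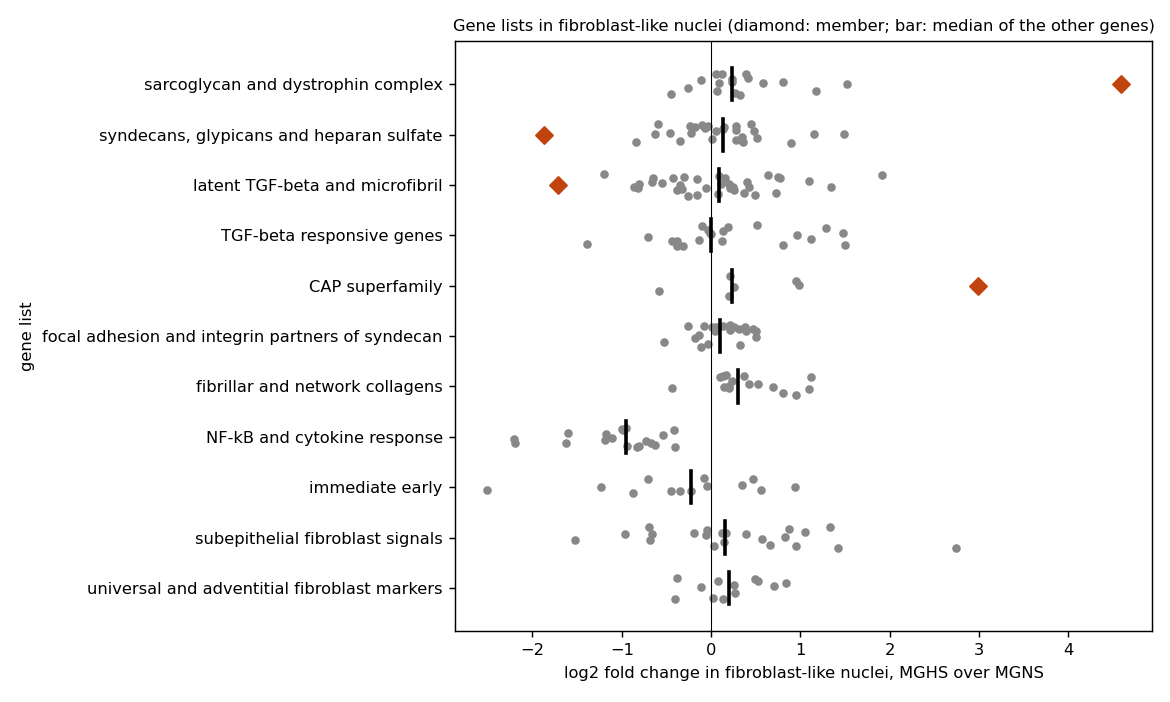
Log2 fold change, MGHS over MGNS, in fibroblast-like nuclei of the tested genes of 11 lists; grey points are genes, black bars the median of a list without the 5 genes, and orange diamonds are SGCZ, SDC4, LTBP2 and CRISPLD1. The 4 genes lie outside the range of their own lists, which follows from how they were picked, and the NF-kB list lies below 0.

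Markers of other cells moved with the groups in some of the fibroblast-like sums. The summed fibroblast list was higher in MGHS, and the smooth muscle or pericyte list ran from 325.4 to 427.6 CPM in MGHS and from 248.6 to 317.5 CPM in MGNS. The B or plasma list, which includes EBF1, ran from 1113 to 1362 CPM in MGHS and from 1722 to 2361 CPM in MGNS, and the median log2 fold change of its 3 tested markers was -2.77. The mast list ran from 1.34 to 4.54 CPM in MGHS and from 4.97 to 10.5 CPM in MGNS, with TPSB2 at 0. The glia list, at 5.57 to 30 CPM in MGHS and 15.8 to 17.6 CPM in MGNS, and the other 9 marker lists overlapped between the groups, and no marker of any list was called. The median mitochondrial share of fibroblast-like nuclei was 0.295% to 0.420% in MGHS animals and 0.159% to 0.291% in MGNS animals. The part of these differences in the results was not tested.

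The genes whose levels were most like those of each of the 5 were taken from Pearson's correlation of log2(CPM + 1) over 78 sums of class and animal (13 classes, 6 animals), which share libraries and cell types and so carry no p. For SGCZ these were LOC101122683, STMN2 and LOC105602898, with r between 0.711 and 0.730. CRISPLD1 was most like EDNRA, the endothelin receptor A (0.883), LOC114115267 (0.881) and AGTR1, the angiotensin receptor (0.880). SDC4 was most like TEAD3 (0.794), KANK1 (0.736) and RND3 (0.735), and LTBP2 most like MOCOS (0.831), TMEM63B (0.827) and PLXNB1 (0.826). Among the genes most like KIAA1755 were LOC132658513 (0.876) and PRIMA1 (0.873). Among the 5 genes themselves r was highest for CRISPLD1 with KIAA1755 (0.610) and for SGCZ with CRISPLD1 (0.594), and was -0.149 for SGCZ with LTBP2.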

How the data were processed

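Whole-number UMI counts for each gene and barcode are what the authors deposited. Per the file headers they come from Cell Ranger 8.0.0, whereas the submitters' processing notes name version 2.1.1, and the conflict is unresolved. The sources used here do not name the build, annotation or strand setting. All 26741 gene numbers matched symbols in a gene table of assembly ARS-UI_Ramb_v3.0, used for names and neighbours only.

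The 5 genes, the gene lists and the alternatives were chosen with earlier results of these data known. A barcode was kept with 300 genes or more and no more than 10% mitochondrial UMIs, and the top 0.5% by UMIs were dropped. Scrublet in scanpy 1.11.5 or, where it called under 0.5%, the top scores removed 3661 doublets. Clustering used 2000 variable genes without the 5 genes, 30 components, 5 neighbours per library and Leiden at 0.8 (igraph 0.11.9), which gave 23 clusters. Clusters took names from 14 marker lists with at least 3 markers 2-fold up and a mean log2 ratio of 0.8, a limit set after the clusters were seen, as was the split of cycling nuclei. Glia-like and cycling T or NK-like nuclei (under 20 nuclei in an animal) were not tested. Cluster 9, with a median of 581 UMIs, stayed unnamed.

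UMIs were summed per animal and class, since the labels speak of separate sheep. The main test was the robust quasi-likelihood F test of edgeR 4.0.16 in R 4.3.3 after TMM scaling and filterByExpr (minimum count 10), with Benjamini-Hochberg adjustment over all genes of a class, and it was tested on simulated data. Alternatives were DESeq2 1.42.0 and voomWithQualityWeights of limma 3.58.1. The SE is the size of the log2 fold change over the square root of F. Percentages and CPM were computed here. Named genes were the 5 in every class, up to 4 genes of smallest p per list, the 10 other genes of smallest p, and the 3 most alike by correlation among 13953 genes with at least 10 CPM in a class. The genes of SGCZ-rich nuclei were named after their values were seen, and relatives and neighbours were added to the rule. Some genes that these rules name are not reported here. Floors cover counting error only.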

Additional observations from a re-analysis of the deposited data

Results flagged for a closer look

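In the barcodes with under 300 genes, which were not retained as nuclei, CRISPLD1 averaged 7.58 ± 2.04 CPM in MGHS and 2.74 ± 1.94 CPM in MGNS (SD, n = 3 each), from 21 and 6 UMIs. It is given because these barcodes enter no comparison of the nuclei and the 3 MGHS values all exceeded the 3 MGNS values. That order rests on few UMIs, with 4 in MGHS 1 (5.30 CPM) and 3 in MGNS 1 (4.78 CPM). MGNS 2 and 3 had 1 and 2 UMIs. With lower values in MGHS, the groups did not overlap there for SDC4 (33.2 ± 7.62 CPM in MGHS and 82.8 ± 25.3 CPM in MGNS) or LTBP2 (26.1 ± 3.496 and 48.2 ± 10.7 CPM). Nor did they for KIAA1755 (0.442 ± 0.765 and 4.81 ± 2.42 CPM, from 1 and 12 UMIs). The share of all genes that separate the groups in these barcodes was not computed, so the separation sets none of these genes apart. SGCZ overlapped between the groups.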

How the results depend on the processing

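Of the alternatives run on the levels, fold changes, shares and counts of the 5 genes, 203 kept direction and size, 25 moved and 1 changed sign. A fold change, level or share of nuclei with a UMI kept its size if it moved by less than the SD between animals. For a gene with a wide spread, such as SGCZ, a larger shift thus still counts as kept. Counts of called genes or pairs kept theirs within a set fold of the main count. For the share of fibroblast-like nuclei only the sign was checked, so its alternatives among the 203 may differ in size. LTBP2 in fibroblast-like nuclei was -1.08 with no doublets removed. The 10 genes called in fibroblast-like nuclei became 182 with no filter on low counts, 272 with DESeq2, 23 with limma voom, 16 with at least 500 genes per nucleus and 0 to 4 without 1 animal each. The list genes called (1) became 20 with no filter, 28 with DESeq2, 5 with limma voom and 0 without any 1 animal. Pairs of gene and other class called (0) became 2 with no filter and 4 with DESeq2. The share of fibroblast-like nuclei, 1.05 percentage points higher in MGHS, ranged over -0.42 to 2.90 without 1 animal each and was -0.42 without MGNS 2. The CRISPLD1 share had a log2 ratio of 2.23 at 2000 UMIs, against 3.42 at 1000. The cause of these shifts was not tested.

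With the replicate number as a block, 6 genes were called in fibroblast-like nuclei (3 higher, 3 lower), 2 of the 5 among them, and 0 list genes. Same-numbered animals correlated at 0.00221, 0.123 and 0.0214 in their deviations, and differently numbered ones at -0.179 to 0.161. Not every animal correlated best with its own number. Deviations from a mean of 3 animals are tied to each other, so this check cannot settle whether the numbers mark a pairing.

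Single genes in other classes kept their side in 396 alternatives, 7 passed the test anew and 20 changed sign. SDC4 in B or plasma-like nuclei was 0.30 without MGHS 1 and ranged over -2.59 to 0.30 without 1 animal each. LTBP2 in T or NK-like nuclei was -0.17 at Leiden resolution 1.4 and -0.12 with no doublets removed. SGCZ in basal-like nuclei was -0.0799 with limma voom, -0.11 without MGNS 2 (range -0.11 to 0.42), -0.0998 at resolution 1.4 and -0.0927 with the 5 genes kept for clustering, and in granular-like nuclei -0.54 without MGHS 1 (range -0.54 to 1.03). LTBP2 in macrophage or dendritic-like nuclei was -0.032 without MGNS 2 and -0.10 without MGHS 3 (range -0.10 to 0.57). LTBP2 in neutrophil-like nuclei was -0.0726 with no filter, -0.13 with limma voom, -0.16, -0.15 and -0.18 without MGNS 1, MGHS 1 and MGHS 3, and -0.0485 with no doublets removed. LTBP2 in cluster 9 was 0.0296 with no filter and 0.033, 0.10 and 0.0042 without MGNS 2, MGHS 1 and MGHS 2 (range -0.27 to 0.10). Depth limits SGCZ, CRISPLD1 and KIAA1755 outside stromal and glia-like nuclei, where most animals hold few or no UMIs.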
